A study of Mus musculus with 6 samples.

Results

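The genes examined were the 6 binding proteins of the insulin-like growth factors (IGFs) Igfbp2 to Igfbp7 and the 3 receptors Igf1r, Igf2r and Insr. These are 9 of the 30349 genes in the table, chosen by name with earlier results of these data known. They were read in cultured mouse epidermal keratinocytes, the cells that build the outer layer of the skin, in 3 wild type libraries (replicates 13, 14 and 15) and 3 p63 alphaKO libraries (replicates 9, 10 and 11). Trp63 encodes p63, a transcription factor that stratified epithelia need, and the alpha forms are those with the longest C terminus. Both groups came from the skin of mice at postnatal day 2 and were grown for 5 to 6 days to confluence in medium with 2.5 ng/mL EGF, 4% serum that had been chelated, and calcium held at 0.05 mM. The sources used here do not give the strain, the part of Trp63 that p63 alphaKO lacks, or whether libraries of a group came from separate animals, so p-values measure only the spread between these libraries.

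IGF1 and IGF2 are secreted growth factors that signal through the tyrosine kinase receptor IGF1R, and insulin signals through the related receptor INSR. Both receptors act through IRS adaptors on the PI3K and AKT pathway. IGF binding proteins hold the IGFs in the tissue fluid and, by binding or release, limit or prolong their access to the receptor. IGF2R, the mannose 6-phosphate receptor, takes IGF2 to the lysosome and sorts lysosomal enzymes. In skin the dermis is known as a main source of IGF1, and basal keratinocytes carry IGF1R.

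Levels are in CPM, reads per 1000000 reads of a library, from 3' digital sequencing, which reads transcripts near their 3' ends. The libraries held 1699716 to 3215333 reads, and the smallest was p63 alphaKO replicate 11. A count of 0 allows a level of up to 3 reads, which is 0.933 CPM at the greatest depth and 1.76 CPM at the least. The keratinocyte markers Krt5 and Krt14 were at 8471 to 11423 and 10394 to 15124 CPM over the 6 libraries, and all 12 of the keratinocyte markers had reads. Trp63 overlapped between the groups, at 38.0 to 53.2 CPM in wild type and 49.8 to 59.3 CPM in p63 alphaKO, and a 3' level does not check the loss of an isoform. Krt1, a keratin of cells leaving the basal layer, fell in p63 alphaKO (log2 fold change -2.44, limma adjusted p = 0.00686), from 185.4 to 400.9 CPM in wild type to 31.0 to 74.4 CPM. Of the other markers in that list, Krt15, a basal keratin, stood at -2.02 (limma adjusted p = 0.299) and Krt10, the partner of Krt1, at -1.60 (0.286), neither with overlap. Wild type replicate 15 and p63 alphaKO replicate 11 stood apart, with long transcripts read less than in the other libraries, so each tested member is given with and without them.

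None of the 9 genes differed between the genotypes past the threshold, an adjusted p of 0.05 (limma on log2(CPM + 1)). Of the 9, 8 passed the filter of a mean of 1 CPM and were tested, and 0 of the 8 were called, where 0.0427% of 11716 tested genes were (0.0341% higher and 0.00854% lower in p63 alphaKO). edgeR and DESeq2 also called 0. At an unadjusted p under 0.05 stood 3 of the 8, with Igfbp4 and Igfbp7 higher and Igfbp2 lower in p63 alphaKO, against 6.36% of all tested genes (3.01% higher and 3.35% lower). The groups did not overlap for 2 of the 8, Igfbp4 (higher) and Igfbp5 (lower), against 11.5% of all tested genes (6.45% higher and 5.09% lower). The median log2 fold change (p63 alphaKO minus wild type) was -0.29 over the 8, with 3 higher and 5 lower, and 0.01 over all tested genes. Counts as small as these, for genes chosen with earlier results of these data known, are a description of the 8 genes.

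**Figure D1:**
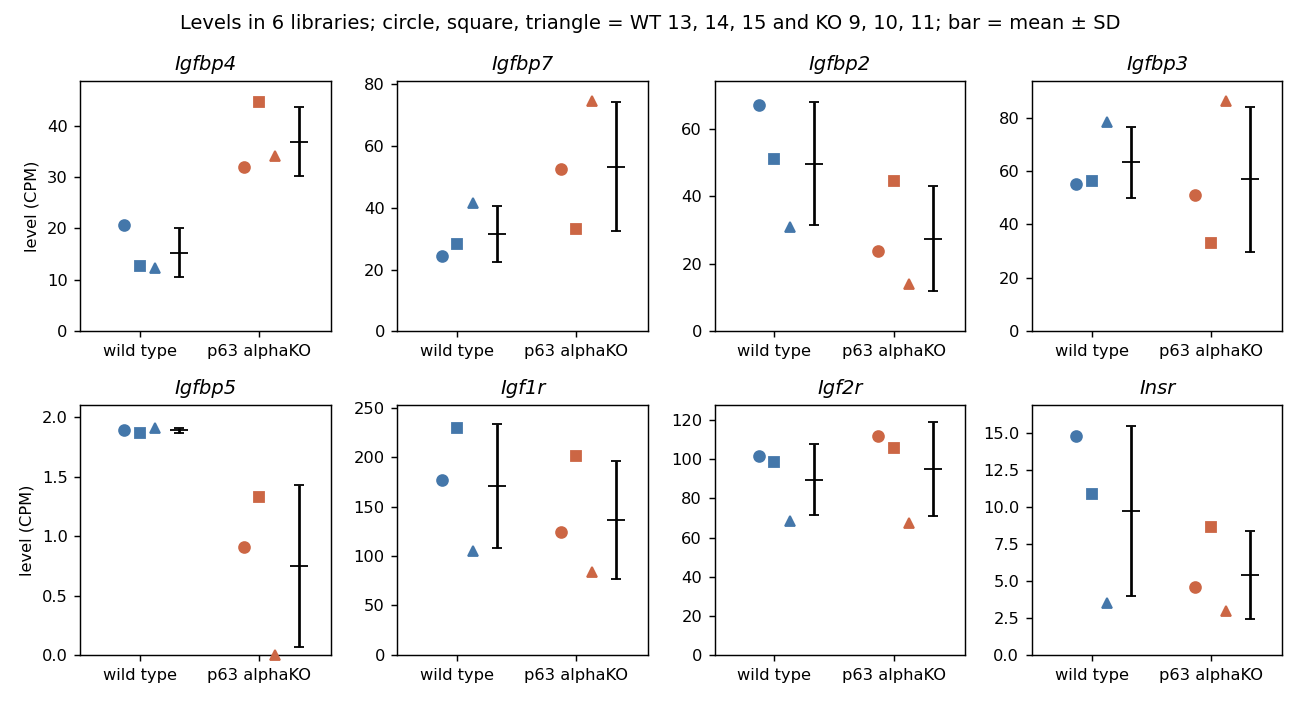
Level in CPM (vertical axis, from 0) of the 8 tested genes in each library, wild type in blue and p63 alphaKO in orange, with the mean ± SD (n = 3) as a black bar. Igfbp4 lies at 12.39 to 20.74 CPM in wild type and at 31.97 to 44.65 CPM in p63 alphaKO, and Igf1r, Igf2r and Insr overlap.

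The sequences just before the RefSeq starts of Igfbp4, Igfbp2 and Igfbp7 are printed because these are the 3 genes at an unadjusted p under 0.05. Each is 250 bases long, 5′ to 3′ on the strand of its gene, in build GRCm38.p6. Capitals mark matches on either strand to GGGCGG (the GC box) or TATAAA (the TATA box).
Igfbp4, chr11:99040994-99041243, plus strand: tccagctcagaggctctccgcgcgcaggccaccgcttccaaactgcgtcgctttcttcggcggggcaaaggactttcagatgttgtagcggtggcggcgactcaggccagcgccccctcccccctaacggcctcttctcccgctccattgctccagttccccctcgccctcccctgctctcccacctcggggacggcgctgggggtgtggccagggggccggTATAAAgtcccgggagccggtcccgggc
Igfbp2, chr1:72824230-72824479, plus strand: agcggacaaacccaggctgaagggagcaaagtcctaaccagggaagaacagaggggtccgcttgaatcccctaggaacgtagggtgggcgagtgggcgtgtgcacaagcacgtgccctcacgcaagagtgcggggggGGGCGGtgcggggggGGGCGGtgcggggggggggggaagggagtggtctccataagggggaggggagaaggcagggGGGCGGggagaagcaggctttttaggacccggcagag
Igfbp7, chr5:77408046-77408295, minus strand: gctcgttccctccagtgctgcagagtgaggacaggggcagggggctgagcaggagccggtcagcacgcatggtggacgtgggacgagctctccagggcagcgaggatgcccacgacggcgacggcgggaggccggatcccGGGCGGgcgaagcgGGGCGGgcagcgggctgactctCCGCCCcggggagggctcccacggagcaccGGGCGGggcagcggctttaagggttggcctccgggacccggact
The Igfbp4 window held 1 TATAAA, whose first base lies 28 bases before the start, and no GGGCGG. The Igfbp2 window held 3 matches to GGGCGG and the Igfbp7 window 4, and neither held TATAAA. Over all 32851 RefSeq promoters cut in this way, 32.7% held GGGCGG and 12.4% held TATAAA. Searched on both strands, the p53 family half-site consensus, which p63 can bind, matched none of the 3 windows and 7.13% of all promoters, and the FOXO letters TGTTTAC matched none of the 3 and 3.17% of all. GC content was 69.2% for Igfbp4, 67.2% for Igfbp2 and 74% for Igfbp7. RefSeq lists 2 starts for Igfbp2, and the first is printed. The window before the second held no GGGCGG and had a GC content of 56.4%. Promoters were found for 8 of the 9 genes in the table used, all but Insr.

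Igfbp4 had the smallest p of the members. Its protein binds IGFs and releases them when it is cut by the protease PAPP-A. Igfbp4 (chromosome 11, 99041244 to 99054392, plus strand) was at 20.74, 12.75 and 12.39 CPM across wild type replicates 13, 14 and 15. It was at 31.97, 44.65 and 34.09 CPM across p63 alphaKO replicates 9, 10 and 11. Every p63 alphaKO library lay above every wild type library. Behind each level lie 39 to 66 reads for wild type and 58 to 134 for p63 alphaKO. The mean was 36.9 ± 6.79 CPM (SD, n = 3) in p63 alphaKO against 15.3 ± 4.72 CPM (SD, n = 3) in wild type. The log2 fold change was 1.24 (SE 0.31, 95% interval 0.58 to 1.90), or 2.36-fold, with an unadjusted p of 9.79e-04 and a limma adjusted p of 0.377. Igfbp4 ranked 30 of 11716 by p. Without both libraries that stood apart it was at 1.17 (limma adjusted p = 0.230), and over all alternatives it ran from 1.06 to 1.47 (limma, edgeR or DESeq2 adjusted p 0.112 to 0.999).

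Igfbp7 stood higher in p63 alphaKO by its mean, with overlap. It encodes a matrix-bound relative of the binding proteins that binds IGFs only weakly. Igfbp7 (chromosome 5, 77349240 to 77408041, minus strand) was at 24.51, 28.29 and 41.61 CPM across wild type replicates 13, 14 and 15. It was at 52.52, 32.99 and 74.65 CPM across p63 alphaKO replicates 9, 10 and 11. p63 alphaKO replicate 10 lay below wild type replicate 15, and the other p63 alphaKO libraries lay above all wild type libraries. The means were 53.4 ± 20.8 CPM (SD, n = 3) and 31.5 ± 8.98 CPM (SD, n = 3), a log2 fold change of 0.70 (SE 0.32, 95% interval 0.03 to 1.38, limma adjusted p = 0.767). It was at 0.43 without p63 alphaKO replicate 11 and 0.64 without both libraries that stood apart.

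Igfbp2 stood lower in p63 alphaKO by its mean, again with overlap. Its protein binds IGF2 strongly and can also bind integrins. Igfbp2 (chromosome 1, 72824503 to 72852474, plus strand) was at 67.24, 50.98 and 30.81 CPM across wild type replicates 13, 14 and 15. It was at 23.75, 44.65 and 14.11 CPM across p63 alphaKO replicates 9, 10 and 11. p63 alphaKO replicate 10 lay above wild type replicate 15, while replicates 9 and 11 lay below all wild type libraries. The means were 49.7 ± 18.2 CPM (SD, n = 3) in wild type and 27.5 ± 15.6 CPM (SD, n = 3) in p63 alphaKO. The log2 fold change was -0.91 (SE 0.38, 95% interval -1.70 to -0.11, limma adjusted p = 0.758). It was -0.52 without p63 alphaKO replicate 11, -1.32 without p63 alphaKO replicate 10 and -0.83 without both libraries that stood apart.

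By its mean over all libraries Igfbp3 was the most read binding protein gene, though not in every library, and did not separate the groups. Its protein is the main IGF carrier of blood plasma and is made by basal keratinocytes. Igfbp3 (chromosome 11, 7206086 to 7213923, minus strand) was at 54.99, 56.27 and 78.46 CPM across wild type replicates 13, 14 and 15. It was at 51.15, 32.99 and 86.40 CPM across p63 alphaKO replicates 9, 10 and 11. The highest library of each group was the one that stood apart, and the p63 alphaKO libraries spanned the whole wild type range. The log2 fold change was -0.24 (SE 0.31, 95% interval -0.90 to 0.42, limma adjusted p = 0.954). It was 0.09 without p63 alphaKO replicate 10, -0.59 without replicate 11 and -0.43 without both libraries that stood apart.

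Igfbp5 and Igfbp6 were close to the limit of detection. Igfbp5, a binding protein that fibroblasts and muscle make in quantity, is on chromosome 1 (72857932 to 72874884, minus strand). It had 6 reads in each wild type library (1.87 to 1.91 CPM) and 2, 4 and 0 reads in p63 alphaKO replicates 9, 10 and 11 (0.91, 1.33 and 0 CPM). The groups did not overlap, yet the pooled rate in wild type was 2.17 times that in p63 alphaKO with an exact 95% interval of 0.823 to 6.66. On the log2 scale the fold change was -0.81 (SE 0.60, limma adjusted p = 0.885). It was -0.45 without p63 alphaKO replicate 11 and also without both libraries that stood apart. With a pseudocount of 0.5 it was -1.13 and with one of 5 it was -0.27, while edgeR gave -1.19 and DESeq2 -1.26. Igfbp6, which prefers IGF2 to IGF1, is on chromosome 15 (102144362 to 102149511, plus strand). It had 3 reads, all in wild type replicate 14, against 1 read in p63 alphaKO replicate 11, a ratio of 2.17 (exact 95% interval 0.174 to 114). It was not tested, and no difference was detectable at this depth. Reads are not independent molecules where molecular identifiers were not used, so these intervals and floors cover counting error alone.

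**Figure D2:**
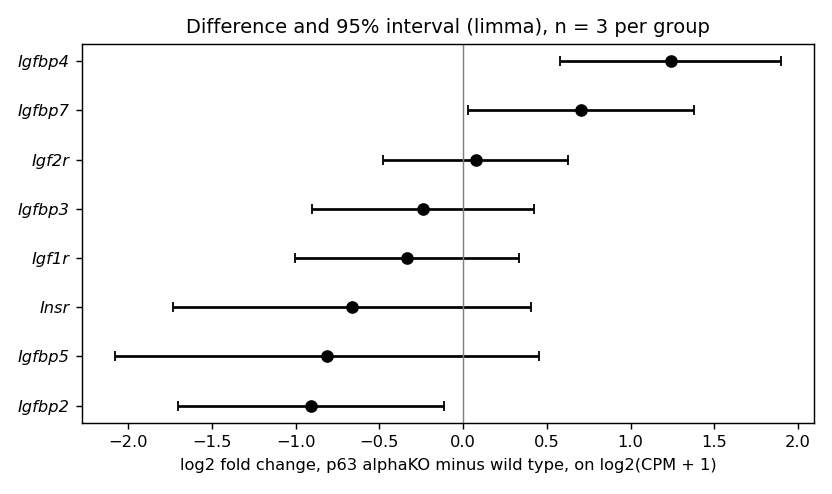
Log2 fold change (horizontal axis, p63 alphaKO minus wild type on log2(CPM + 1)) of the 8 tested genes, with limma's 95% interval as a bar. The intervals of Igfbp4 (0.58 to 1.90), Igfbp7 (0.03 to 1.38) and Igfbp2 (-1.70 to -0.11) leave out 0, and those of the other 5 include it.

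The summed level of the 6 binding protein genes overlapped between the groups, and its make-up varied between libraries. In wild type replicates 13, 14 and 15 the sum was 169.4, 151.1 and 165.2 CPM. In p63 alphaKO replicates 9, 10 and 11 it was 160.3, 156.6 and 209.8 CPM. These sums rest on 351 to 539 reads per library, and the intervals of the shares cover counting error alone. Igfbp4 gave 12.2% of them in wild type replicate 13 (Wilson 95% interval 9.74% to 15.3%), 8.44% in replicate 14 (6.28% to 11.2%) and 7.50% in replicate 15 (5.53% to 10.1%). It gave 19.9% in p63 alphaKO replicate 9 (16.1% to 24.4%), 28.5% in replicate 10 (24.6% to 32.8%) and 16.2% in replicate 11 (12.8% to 20.4%). The share of Igfbp4 was thus higher in each p63 alphaKO library than in each wild type library. The level of Igfbp4 over that of Igfbp2 was 0.308, 0.250 and 0.402 in wild type and 1.35, 1.00 and 2.42 in p63 alphaKO, in replicate order. That ratio was chosen after the values were seen and is given with no test.

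**Figure D3:**
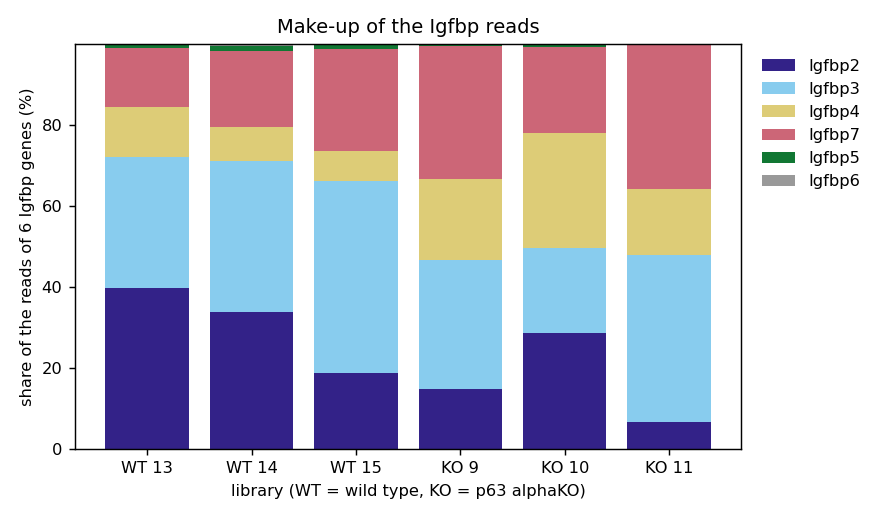
Share in percent (vertical axis) of the reads of the 6 Igfbp genes that each gene took in each library (horizontal axis). The Igfbp4 part runs from 7.50% to 12.2% in the wild type libraries and from 16.2% to 28.5% in the p63 alphaKO libraries, and the Igfbp2 part is smallest in p63 alphaKO replicate 11, at 6.72% (Wilson 95% interval 4.56% to 9.81%).

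The receptors overlapped between the genotypes. Igf1r (chromosome 7, 67952827 to 68233668, plus strand) was at 176.9, 229.7 and 105.1 CPM across wild type replicates 13, 14 and 15. It was at 124.7, 201.3 and 84.1 CPM across p63 alphaKO replicates 9, 10 and 11. In each group the lowest library was the one that stood apart, and within a group the highest library was over 2 times the lowest, by 2.18 in wild type and 2.39 in p63 alphaKO. The means were 170.6 ± 62.5 CPM (SD, n = 3) and 136.7 ± 59.5 CPM (SD, n = 3), a log2 fold change of -0.34 (SE 0.32, 95% interval -1.01 to 0.33, limma adjusted p = 0.926). It was -0.03 without p63 alphaKO replicate 11, -0.66 without replicate 10, -0.09 without wild type replicate 14, -0.65 without wild type replicate 15 and -0.35 without both libraries that stood apart.

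Insr, the insulin receptor gene (chromosome 8, 3122061 to 3279617, minus strand), was read far less. It was at 14.77, 10.88 and 3.49 CPM across wild type replicates 13, 14 and 15 (47, 35 and 11 reads). It was at 4.57, 8.66 and 2.94 CPM across p63 alphaKO replicates 9, 10 and 11 (10, 26 and 5 reads). Wild type replicate 15 lay among the p63 alphaKO libraries. Its log2 fold change was -0.66 (SE 0.51, 95% interval -1.73 to 0.41, limma adjusted p = 0.891). With wild type replicate 15 left out it was -1.20, and with wild type replicate 13 left out -0.29. Leaving out p63 alphaKO replicate 11 gave -0.36 and leaving out replicate 10 gave -1.01. It was -0.90 without both libraries that stood apart.

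Igf2r (chromosome 17, 12682406 to 12769664, minus strand) was the most even gene of the 3 receptors. Wild type replicates 13, 14 and 15 had 101.5, 98.5 and 68.6 CPM. The p63 alphaKO replicates 9, 10 and 11 had 111.9, 106.0 and 67.6 CPM. The groups covered the same range, and again the lowest library of each was the one that stood apart. The log2 fold change was 0.07 (SE 0.26, 95% interval -0.48 to 0.63, limma adjusted p = 0.995), so a fold of 1.55 in favour of p63 alphaKO, or of 1.40 in favour of wild type, lies at the ends of the interval. Its sign turned without wild type replicate 15 (-0.11), p63 alphaKO replicate 9 (-0.06) or replicate 10 (-0.02), and the fold change was 0.12 without both libraries that stood apart. Igf2r is imprinted in the mouse, and the antisense RNA Airn, which silences the paternal copy in other tissues, starts within it and overlaps it by 28354 bases. Airn was at 9.11, 6.53 and 5.72 CPM across wild type against 4.57, 5.00 and 11.17 CPM across p63 alphaKO. The sources used here do not say whether counting used the strand, so reads of Igf2r and Airn cannot be told apart where they overlap.

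Library differences that many genes share moved with the receptors. All 3 receptor genes have a longest annotated transcript of 8 kb or more: 11409 bases for Igf1r, 9355 for Insr and 8887 for Igf2r. The 651 tested genes of that length lay at a median of -0.25 in wild type replicate 15 and -0.38 in p63 alphaKO replicate 11, as log2(CPM + 1) minus the mean of the 6 libraries, and at 0.09 to 0.24 in the other libraries. The 2462 tested genes under 2 kb lay at 0.11 and 0.25 in those 2 libraries and at -0.10 to -0.05 in the others. Igf1r lay at -0.45 and -0.77 in the same 2 libraries, Igf2r at -0.40 and -0.42 and Insr at -0.74 and -0.93. The tested members under 2 kb went both ways there. Igfbp2 (1307 bases) lay at -0.15 and -1.22, low like the receptors, and Igfbp7 (1200 bases) at 0.07 and 0.90. With each library centred on genes of similar length, an alternative added after seeing the data, the log2 fold changes were -0.35 for Igf1r, 0.06 for Igf2r, -0.67 for Insr and 1.24 for Igfbp4.

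**Figure D4:**
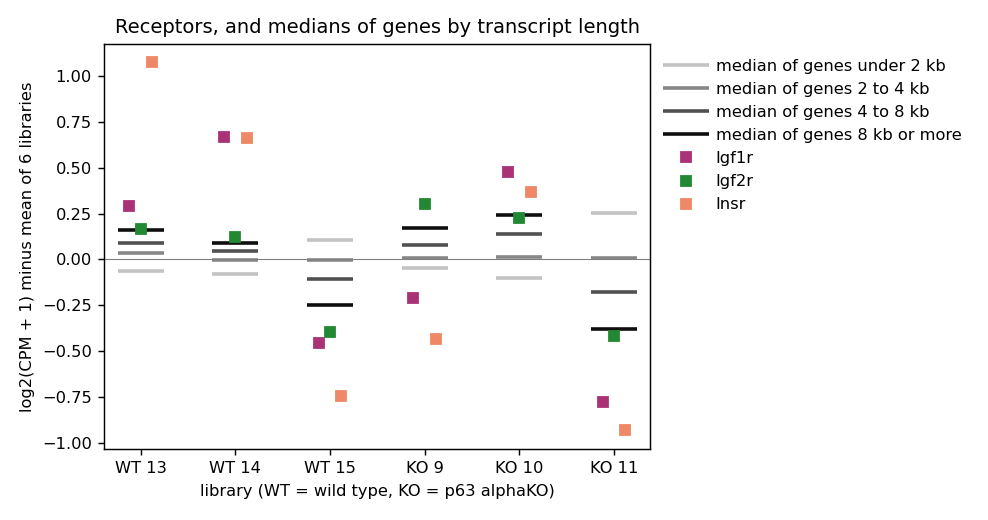
Level of the 3 receptor genes (squares) and median level of tested genes by length of the longest annotated transcript (horizontal bars, darker for longer genes), as log2(CPM + 1) minus the mean of the 6 libraries (vertical axis), in each library. In wild type replicate 15 and p63 alphaKO replicate 11 the receptors and the genes of 8 kb or more lie below 0, with medians of -0.25 and -0.38 for the latter.

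Some members tracked each other across the 6 libraries, given here as a description over n = 6 libraries that also differ in genotype, depth and the length trend above. Of 28 pairs of tested members, Igfbp2 and Insr had the highest Pearson correlation of log2(CPM + 1), r = 0.93, and Igfbp2 and Igfbp7 the lowest, r = -0.998. In both genotypes the order of the libraries by Igfbp7 was the reverse of their order by Igfbp2. Without the 2 libraries that stood apart, r between Igfbp2 and Igfbp7 was -0.996 over n = 4. Among 8000 other genes at a mean of 10 CPM or more, those most like Igfbp4 were Rnf144b (r = 0.99) and Dguok (r = 0.98). Those most like Igfbp2 were Hipk3 and Pus10, and those most like Igfbp7 were 9130008F23Rik and Cldn3 (r = 0.991 to 0.995 for these 4 genes). Igfbp3 was most like Rpl24 and Gm12603 and Igf2r most like Cds1 and Tnrc6c (r = 0.994 to 0.998). With 8000 genes and 6 libraries, very high values are reached for each of these members.

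**Figure D5:**
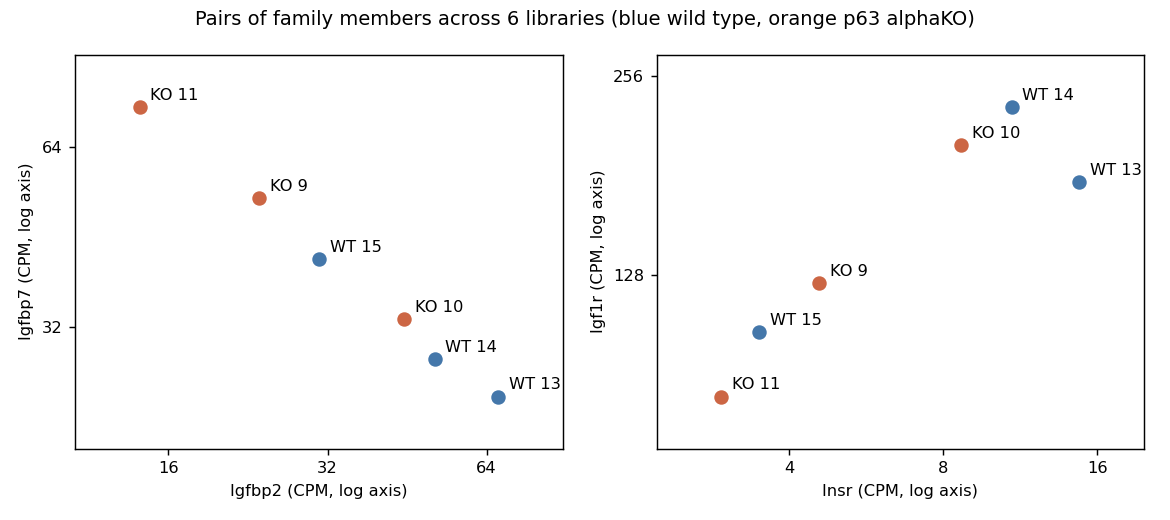
Level of Igfbp7 against Igfbp2 (left) and of Igf1r against Insr (right) in CPM on log axes, 1 point per library, wild type in blue and p63 alphaKO in orange. Igfbp7 runs from 24.51 to 74.65 CPM while Igfbp2 runs from 67.24 to 14.11 CPM, in reverse order.

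Levels of the genes are given in CPM and then per kb of transcript. Reads near 3' ends need not scale with length, so the order per kb does not correct the order in CPM. By mean CPM over the 6 libraries the order was Igf1r (153.6), Igf2r (92.3), Igfbp3 (60.0), Igfbp7 (42.4), Igfbp2 (38.6), Igfbp4 (26.1), Insr (7.55), Igfbp5 (1.32) and Igfbp6 (0.253). Per kb of the longest annotated transcript it was Igfbp7 (35.4 CPM per kb), Igfbp2 (29.5), Igfbp3 (24.8), Igf1r (13.5), Igf2r (10.4), Igfbp4 (6.81), Insr (0.807), Igfbp6 (0.228) and Igfbp5 (0.220). In CPM the ranges over libraries of each neighbouring pair down to Igfbp4 overlapped, as did those of Igfbp5 and Igfbp6. Insr (2.94 to 14.77 CPM) overlapped Igfbp4 (12.39 to 44.65 CPM) and not Igfbp5 (0 to 1.91 CPM). Within each library Igf1r lay above Igf2r and Igfbp4 above Insr, while the other overlapping pairs changed order between libraries. Igf1r over Igf2r, in CPM, was 1.74, 2.33 and 1.53 among the wild type replicates 13, 14 and 15. It was 1.11, 1.90 and 1.24 among the p63 alphaKO replicates 9, 10 and 11, so the ratio overlapped between the groups.

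Some binding protein genes are neighbours. Igfbp2 and Igfbp5 point at each other on chromosome 1, 5.46 kb apart, and Igfbp3 and Igfbp1 point at each other on chromosome 11, 3.54 kb apart. In each pair 1 gene was well read and its neighbour barely. Igfbp1 was at 0.63, 0 and 2.86 CPM across wild type against 0, 0 and 0.59 CPM across p63 alphaKO, 11 reads against 1. The pooled rate in wild type was 7.94 times that in p63 alphaKO (exact 95% interval 1.15 to 342), and 9 of the 11 reads came from wild type replicate 15. The neighbours of Igfbp4 overlapped between the groups: Top2a, a topoisomerase of dividing cells, was at 244.0 to 518.4 CPM in wild type and 201.0 to 339.2 CPM in p63 alphaKO, and Tns4 at 240.8 to 361.5 and 188.1 to 328.3 CPM.

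Ligands were almost absent. Igf1 was at 0, 0 and 3.81 CPM across wild type against 0, 0 and 1.18 CPM across p63 alphaKO, 12 reads against 2. All of these came from the 2 libraries that stood apart. Igf2 had 11 reads in each group, at 2.20, 0.93 and 0.32 CPM and at 3.65, 0.67 and 0.59 CPM, and a log2 fold change of 0.20 (limma adjusted p = 0.993). Ins1, Ins2, Igfbpl1 and Insrr were listed at 0 in all libraries. Igfals, the gene of a plasma partner of IGFBP3, had 6 reads in wild type (0.31 to 0.93 CPM) and 13 in p63 alphaKO (1.76 to 2.00 CPM), a log2 fold change of 0.83 (limma adjusted p = 0.885).

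No gene of the pathway lists passed the threshold over all tested genes. Among proteases that cut binding proteins and their inhibitors, 8 of 13 were tested, with 4 higher, 4 lower and a median of -0.01. Adamts1, a secreted protease, was at 85.78, 189.62 and 76.87 CPM across wild type against 30.60, 46.99 and 5.29 CPM across p63 alphaKO (limma adjusted p = 0.293). Mmp9, a gelatinase, was at 0, 0 and 0.32 CPM and at 4.57, 5.67 and 5.29 CPM (limma adjusted p = 0.293). Neither overlapped between the groups. Pappa, whose protease cuts IGFBP4, was below the filter, at 2.51 CPM or less in every library, and its inhibitor gene Stc2 stood at -0.09. Htra1, a secreted protease with a binding protein domain, was at 360.6 to 446.8 CPM in wild type and 283.3 to 478.2 CPM in p63 alphaKO.

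Of 11 other genes with a binding protein domain, 4 were tested and all 4 stood lower, with a median of -0.66. Ctgf, a matrix protein, was at 2.83, 9.64 and 1.91 CPM across wild type against 0, 3.00 and 0 CPM across p63 alphaKO (limma adjusted p = 0.758), and Cyr61 stood at -0.57 (limma adjusted p = 0.881). The groups overlapped for each of the 4.

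Downstream of the receptors, 17 of 20 adaptors and inhibitors were tested, with 7 higher and 10 lower (median -0.06). Irs1, the adaptor that links IGF1R to PI3K, was at 13.51, 9.95 and 7.62 CPM across wild type against 6.85, 4.33 and 3.53 CPM across p63 alphaKO, with no overlap (log2 fold change -0.95, unadjusted p = 0.0348, limma adjusted p = 0.767). Irs2 was at 33.67 to 39.17 CPM and 24.69 to 38.32 CPM, with overlap. Socs1, a feedback inhibitor, stood at -1.27 (limma adjusted p = 0.795). Among PI3K, AKT and mTOR genes 33 of 34 were tested, with 18 higher and 15 lower (median 0.07). Tsc1, a brake on mTOR, stood at 0.64 (limma adjusted p = 0.822). Rps6, a ribosomal protein gene with near-identical copies that make its count uncertain, stood at -0.57 (0.767).

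FOXO factors are held in check by AKT. Of 19 FOXO target genes 15 were tested, with 6 higher and 9 lower and a median of -0.09. Fbxo32, a ubiquitin ligase gene, was at 73.52, 60.62 and 31.45 CPM across wild type against 140.65, 100.64 and 151.06 CPM across p63 alphaKO, with no overlap (limma adjusted p = 0.299). Gadd45a, a stress gene, was at 7.94 to 10.05 CPM and 14.66 to 25.27 CPM, with no overlap (limma adjusted p = 0.716). Sesn1, of the same list, was lower in p63 alphaKO with no overlap, at 4.08 to 5.60 CPM in wild type and 1.37 to 3.00 CPM. Its log2 fold change was -0.73 (limma adjusted p = 0.872). Insr and Irs2, also in the list, stood at -0.66 and -0.15. The mannose 6-phosphate sorting list, which serves the other role of IGF2R, had 16 of 16 tested, 8 higher and 8 lower (median 0.02), with Hexa at -1.19 (limma adjusted p = 0.806) and Ctsl at -0.28 (0.926). The IGF2 mRNA binding proteins stood at -0.56 for Igf2bp1 (limma adjusted p = 0.799), -0.18 for Igf2bp2 and -0.13 for Igf2bp3.

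Markers of other cell types were present and varied within both groups. In bulk RNA fewer cells of a type and less RNA per cell cannot be told apart. The melanocyte markers, 10 of 10 with reads, had sums of 898.3, 824.7 and 344.7 CPM for wild type replicates 13, 14 and 15. For p63 alphaKO replicates 9, 10 and 11 the sums were 620.6, 1136 and 256.9 CPM. The fibroblast markers, 9 of 10 with reads and Lum at 0, had sums of 76.0, 63.4 and 29.9 CPM against 32.0, 77.7 and 14.1 CPM. Both sums were lowest in the same libraries as Igf1r, Insr and Igfbp2, and in p63 alphaKO both were highest in replicate 10, as Igf1r, Insr, Igfbp2 and Igfbp4 were. Both sums overlapped between the genotypes. The part of these cells in the levels of the members was not tested.

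The muscle markers, 8 of 10 with reads and Myh3 and Myh8 at 0, had sums of 77.9, 84.6 and 694.1 CPM for wild type and 17.4, 30.0 and 74.7 CPM for p63 alphaKO. Those groups did not overlap, and the sum was lower in p63 alphaKO, as Igfbp5 was, while Igfbp4 was higher. Igfbp5 had 6 reads in each wild type library and 2, 4 and 0 in p63 alphaKO replicates 9, 10 and 11. These are too few to compare with the sum within a group. Without replicate 15 the wild type sums still lay above all p63 alphaKO sums. Endothelial markers had reads for 7 of 9, with Kdr and Emcn at 0, and summed to 20.4 to 30.8 CPM in wild type and 14.0 to 30.6 CPM in p63 alphaKO. Immune and Langerhans cell markers had reads for 4 of 8, with Cd207, Cd3e, Itgam and Cd52 at 0, and summed to at most 8.67 CPM in any library. Pericyte and smooth muscle markers, 8 of 8 with reads, summed to 58.8 to 92.6 and 65.3 to 76.3 CPM. Of its 8 genes 4 were tested, with 3 higher and 1 lower in p63 alphaKO. Acta2, smooth muscle actin, was at 11.44 to 13.20 CPM in wild type and 19.66 to 25.12 CPM in p63 alphaKO (log2 fold change 0.84, unadjusted p = 0.0158, limma adjusted p = 0.729), the same direction as Igfbp4. Mcam, an adhesion molecule, went the other way, at 34.94 to 64.97 CPM against 22.34 to 41.32 CPM, with overlap (log2 fold change -0.76, unadjusted p = 0.0273, limma adjusted p = 0.758). Myh11 had 5 reads, all in wild type replicate 13. The part of muscle or smooth muscle cells in the levels of Igfbp4 and Igfbp5 was not tested.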

How the data were processed

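The members and gene lists were chosen with earlier results of these data known. Per the submitters' processing notes, STAR, HTSeq and mm10 were used; for versions, annotation, strand setting and use of molecular identifiers the entry is "not given in the sources used here". Each library has 1 column of deposited CPM with 2 decimals, as the column sums show. Dividing by the value of 1 read gave whole reads for 100% of values above 0, within 0.1 read, 1699716 to 3215333 reads per library.

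Genes whose mean reached 1 CPM entered the test, run with limma 3.58.1 (R 4.3.3, eBayes with trend) on log2(CPM + 1), p63 alphaKO minus wild type, two-sided, Benjamini-Hochberg over all 11716, at 0.05. This scale understates the change of low genes. Alternatives were pseudocounts of 0.5 and 5, no filter, a mean of 5 CPM, TMM and quantile scaling, no trend, robust moderation, edgeR 4.0.16 and DESeq2 1.42.0 on whole reads, and libraries left out. The fit was tested on simulated data. All 9 members are named. From each list the genes past the threshold are named, or the 2 of smallest p where none passed, and listed genes may be given by level. Coordinates are from GENCODE vM21 (GRCm38) and promoters from RefSeq (GRCm38.p6). The genes most like Igf1r are not reported here.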

Additional observations from a re-analysis of the deposited data

How the results depend on the processing

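No member was called under any of 18 alternatives (limma, edgeR or DESeq2), and 139 of 143 member values kept their direction. The other 4 came from leaving out 1 library. The log2 fold change of Igfbp3 turned to 0.091 when p63 alphaKO replicate 10 was left out (range -0.59 to 0.091). That of Igf2r turned to -0.11 with wild type replicate 15 left out, to -0.06 with p63 alphaKO replicate 9 and to -0.02 with p63 alphaKO replicate 10 (range -0.11 to 0.30). The unadjusted p of Igfbp4 was under 0.05 in 18 of 18 alternatives, that of Igfbp2 in 13 and that of Igfbp7 in 12. Over all tested genes the 5 calls became 2 with a pseudocount of 0.5, 3 with 5, 1 with no filter, 2 with a mean of 5 CPM, 2 by edgeR and 18 by DESeq2. Without a trend limma called 0, with 827 genes at an unadjusted p under 0.05. Centring by transcript length, chosen after seeing the data, gave 3. Leaving out 1 library gave 2 to 12 calls, and leaving out wild type replicate 15 and p63 alphaKO replicate 11 together gave 31, with 0 members among them. TMM and quantile scaling moved the median of all genes by -0.02 and -0.002. The cause of these differences was not tested. No paired analysis was possible because the groups share no replicate numbers. Depth limits Igfbp5, Igfbp6 and the ligands, at 24 reads or fewer each over the 6 libraries.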
